A study of Homo sapiens with 36 samples.

Results

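Metallothioneins and the genes that sense and export zinc were followed in 2 human cell lines exposed to a water extract of aconite. The group was chosen by gene name, with earlier results of these data known. It held 9 of the 60675 genes in the count table: MT1A, MT1E, MT1F, MT1G, MT1M, MT1X and MT2A, which encode metallothioneins, together with MTF1 and SLC30A1. In SW1783, a human astrocytoma line, MT2A was higher with the extract and with wortmannin, whereas no gene of the group passed the thresholds against vehicle in HT29, a human colorectal adenocarcinoma line.

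Metallothioneins are small, cysteine-rich proteins that bind zinc and copper and take up toxic metals such as cadmium. MTF1 is the transcription factor that senses free zinc and activates metallothionein genes and SLC30A1 through short metal response elements in their promoters. SLC30A1 is the exporter that carries zinc out of the cell across the plasma membrane. Metallothionein genes also respond to oxidants and to glucocorticoids in many tissues, and they are well known from astrocytes and from the intestinal epithelium.

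The 36 libraries formed 12 groups of 3 replicates, all harvested at 24 h. Within each line, batch A held cells given vehicle (0.1% DMSO according to the labels) and cells given 10 µM wortmannin, an inhibitor of PI3K, as the positive control. The vehicle group labelled batch B was shared by 3 groups given the water extract of Aconiti Lateralis Radix Preparata, called ACD here, at 20 (low), 100 (medium) and 500 (high) µg/mL. The study asked whether ACD acts differently in cells from the brain and from the intestine. SW1783 was kept in Leibovitz medium without CO2 and HT29 in DMEM with CO2, so cell line and culture condition cannot be told apart, and each origin was represented by a single line. No source used here says that replicates were separate cultures, so p-values measure the spread between these libraries, which may be technical.

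Total counts per library ranged from 15941255 to 33866644. EPCAM and KRT20, which mark epithelium, had median CPM of 534 and 252.5 in HT29 and were at or near 0 in SW1783, and the mesenchymal marker VIM was at 4534 in SW1783 and 0.036 in HT29. The shallowest library was replicate 2 of HT29 at the high dose, which lay away from the other replicates of its group in MTF1 and MT1E. In normalized counts it also lay apart in some genes outside the group. NQO1 was at 27464 against 17611 and 17960, and PER1 at 167.5 against 341.6 and 339.9. Vehicle libraries of batches A and B that carried the same number were closer to each other than those with different numbers, with a chi-square statistic of their counts per degree of freedom of 1.51 to 1.61 against 1.96 to 2.95 in SW1783 and of 1.44 to 1.51 against 3.74 to 16.1 in HT29. In HT29 the differently numbered pairs that held a replicate 1 gave 13.8 to 16.1, and those of replicates 2 and 3 gave 3.74 and 4.05. Whether same-numbered vehicle libraries came from the same cultures was not given in the sources used here. Of the mitochondrial ribosomal RNAs, MT-RNR2 was 5.87-fold higher in SW1783 and 9.67-fold higher in HT29 at the high dose, and MT-RNR1 19.7-fold and 23.7-fold. At the medium dose MT-RNR2 was 8.04-fold higher in SW1783 and 1.7-fold in HT29. Together they made up 11.3% to 12.5% of the counts of HT29 high-dose libraries, against 1.14% to 1.22% with vehicle of batch B. The fits without these rows gave the same calls for every gene of the group.

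All 7 metallothionein genes lie in a cluster on chromosome 16 (GRCh38, GENCODE v44), from MT2A at 56608584 to 56609497 to MT1X at 56682470 to 56684196. MT1G is on the minus strand and the others are on the plus strand. MTF1 lies on chromosome 1 at 37809574 to 37859592 and SLC30A1 on the same chromosome at 211571568 to 211579161, both on the minus strand. The promoters of MT2A, MT1X and SLC30A1, as RefSeq gives them on GRCh38.p14, are shown because these genes are known targets of MTF1 and their counts are compared. Each line gives the 250 bases before the gene start, 5′ to 3′ on the gene's strand. Capitals mark the core of the metal response element, searched as TGCACNC and TGCGCNC on both strands.
MT2A, chr16:56608334-56608583, plus strand: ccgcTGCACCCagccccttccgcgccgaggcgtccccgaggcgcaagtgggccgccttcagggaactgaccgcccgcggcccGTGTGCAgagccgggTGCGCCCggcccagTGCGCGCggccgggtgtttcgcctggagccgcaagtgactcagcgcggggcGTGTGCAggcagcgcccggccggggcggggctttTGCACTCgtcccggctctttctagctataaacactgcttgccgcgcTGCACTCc
MT1X, chr16:56682220-56682469, plus strand: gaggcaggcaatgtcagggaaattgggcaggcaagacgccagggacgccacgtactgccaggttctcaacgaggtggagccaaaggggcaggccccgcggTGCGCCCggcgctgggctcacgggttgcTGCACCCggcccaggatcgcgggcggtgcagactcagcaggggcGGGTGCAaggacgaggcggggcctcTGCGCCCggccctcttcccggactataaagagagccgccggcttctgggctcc
SLC30A1, chr1:211579162-211579411, minus strand: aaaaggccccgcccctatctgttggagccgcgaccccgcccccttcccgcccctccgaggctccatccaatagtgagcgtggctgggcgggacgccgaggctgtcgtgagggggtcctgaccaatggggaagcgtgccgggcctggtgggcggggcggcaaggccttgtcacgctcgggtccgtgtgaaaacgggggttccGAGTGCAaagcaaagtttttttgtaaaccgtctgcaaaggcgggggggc
The MT2A promoter held 7 matches, at 246, 168, 153, 139, 88, 54 and 8 bases before the start. MT1X held 4 and SLC30A1 held 1. At least 1 match was found in 24.8% of the 35116 promoters of this length, at least 4 in 0.37% and at least 7 in 0.03%. No match was found in this window of MTF1. The letters TGACNNNGC, the core of the antioxidant response element, occurred once in each of the MT2A, MT1X and SLC30A1 windows, apart from the capitals, and in 10.9% of all promoters. RefSeq promoters of 4 of the 9 genes were matched, and those of MT1A, MT1E, MT1F, MT1G and MT1M were not used here.

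The lines differed in which metallothionein gene held most of the counts. MT2A was the main one in SW1783 and MT1E in HT29. In SW1783 vehicle cells of batch B, MT2A made up 87.9% ± 0.735 (SD, n = 3) of all metallothionein counts, MT1E 6.21% ± 0.327 and MT1X 4.91% ± 0.273. In HT29 vehicle cells MT1E made up 69.4% ± 1.31, MT2A 25% ± 0.85 and MT1X 3.34% ± 0.225. These are shares of RSEM expected counts. Every count of the 9 genes in the 36 libraries was a whole number, while 8.84% of all values in the count table were not. Division of reads among the near-identical metallothionein genes thus did not show in these counts.

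**Figure D1:**
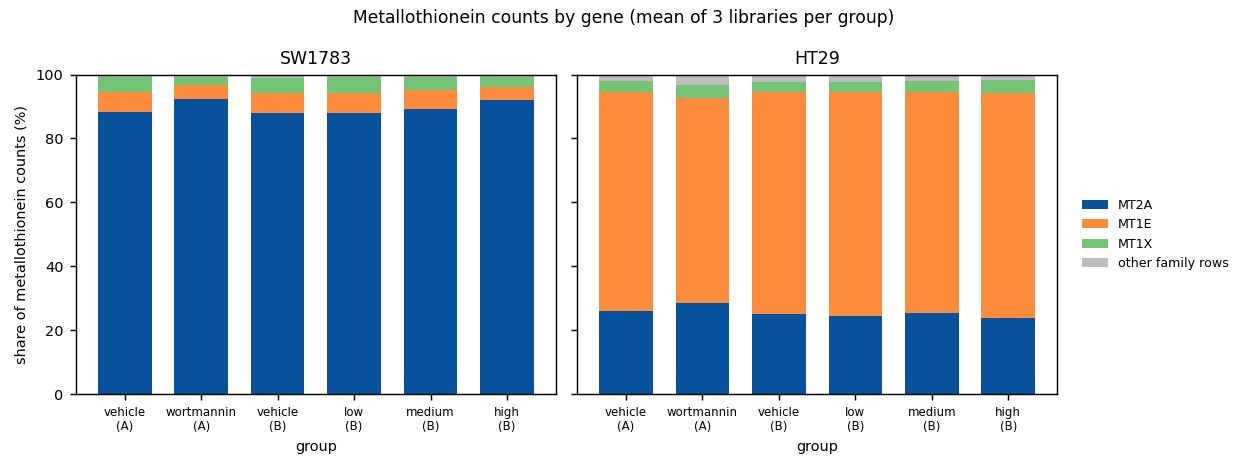
Share of the metallothionein counts (%) held by MT2A, MT1E, MT1X and the other rows of the family in each of the 12 groups, as the mean of 3 libraries. MT2A held 87.9% to 92.5% in the SW1783 groups, and MT1E held 63.9% to 70.4% in the HT29 groups.

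Not every member was counted in both lines. MT1M had 0 counts in all 18 HT29 libraries, which allows up to 3 counts in each, and 0 to 6 counts in SW1783. MT1G had 0 to 4 counts in SW1783 and 4 to 17 in HT29. MT1A had 1 to 10 counts in SW1783 and 8 to 30 in HT29. MT1F had 3 to 29 counts in SW1783 and 5 to 26 in HT29. MT1E, MT1X, MT2A, MTF1 and SLC30A1 were well counted in both lines, MT1X in HT29 with the fewest at 57 to 118 counts per library. MT1X overlaps an unnamed gene, ENSG00000259827, on its own strand, and MTF1 overlaps ENSG00000235673 on the opposite strand, so that part of their counts may belong to these neighbours.

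Levels of different genes were compared per kilobase of transcript. In SW1783 vehicle cells of batch B, MT2A was at 12300 normalized counts per kilobase, MT1X at 683, MT1E at 467, SLC30A1 at 370 and MTF1 at 112. In HT29 vehicle cells MT1E was at 2340, MT2A at 1570, MT1X at 209, SLC30A1 at 169 and MTF1 at 121. MTF1, the sensor, thus stood below the exporter and the 3 main metallothioneins in both lines.

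Between the vehicle groups of batch B, 6 of the 9 genes differed past the thresholds used throughout, an adjusted p-value under 0.05 and a log2 fold change over 0.585 in either direction, which is 1.5-fold. Of all genes tested, 52.2% did so. MT2A was 7.88-fold higher in SW1783 (log2 difference 2.98 ± 0.09 SE, adjusted p = 2.4e-253), at 4934 ± 244.9 against 629 ± 110.3 normalized counts (SD, n = 3). MT1X was 3.31-fold higher in SW1783 (1.73 ± 0.19, adjusted p = 4.15e-19), and SLC30A1 was 2.18-fold higher (1.13 ± 0.05, adjusted p = 4.43e-94). MT1E was 5-fold lower in SW1783 (log2 difference -2.32 ± 0.12, adjusted p = 1.91e-87), at 348.7 ± 30.7 against 1743 ± 279.4. The other 2, MT1A and MT1G, were lower in SW1783 as well, with few counts. MTF1 gave a log2 difference of -0.12 (95% interval -0.35 to 0.11), and the groups overlapped.

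MT2A followed the dose of ACD in SW1783. Its normalized counts in the 3 libraries of a group were 4816, 4770 and 5215 with vehicle, 5438, 5158 and 5142 at the low dose, 6243, 6822 and 6401 at the medium dose, and 8376, 7799 and 7761 at the high dose. The libraries of the medium and high doses lay apart from each other and above all those of vehicle and of the low dose, which overlapped. Such a lack of overlap was common among all genes tested. It held for 60.4% between high dose and vehicle, 50.2% between medium dose and vehicle, 56.6% between high and medium and 39.8% between medium and low. At the high dose MT2A rose 1.65-fold (log2 fold change 0.72 ± 0.04 SE, adjusted p = 1.19e-65). It was the 1 gene called of the 8 with an adjusted p-value, in a comparison where 18.2% of all genes were called, and in size it ranked 784 among the 1105 called rises that averaged at least 100 normalized counts. In bulk RNA, more cells with MT2A and more MT2A RNA per cell cannot be told apart. At the medium dose it was 1.32-fold higher than with vehicle (0.40 ± 0.04, adjusted p = 3.04e-20), under the fold threshold. None of the 5 genes with an adjusted p-value was called there, against 3.82% of all genes, nor at the low dose, against 0.118%. The low dose gave a log2 fold change of 0.09 for MT2A (95% interval 0.01 to 0.17, adjusted p = 0.281). From low to medium the difference was 0.31 ± 0.04 (adjusted p = 4.74e-12) and from medium to high 0.32 ± 0.04 (adjusted p = 1.72e-13). Neither step reached 1.5-fold, and no gene of the group was called in them, against 1.93% and 10.2% of all genes.

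**Figure D2:**
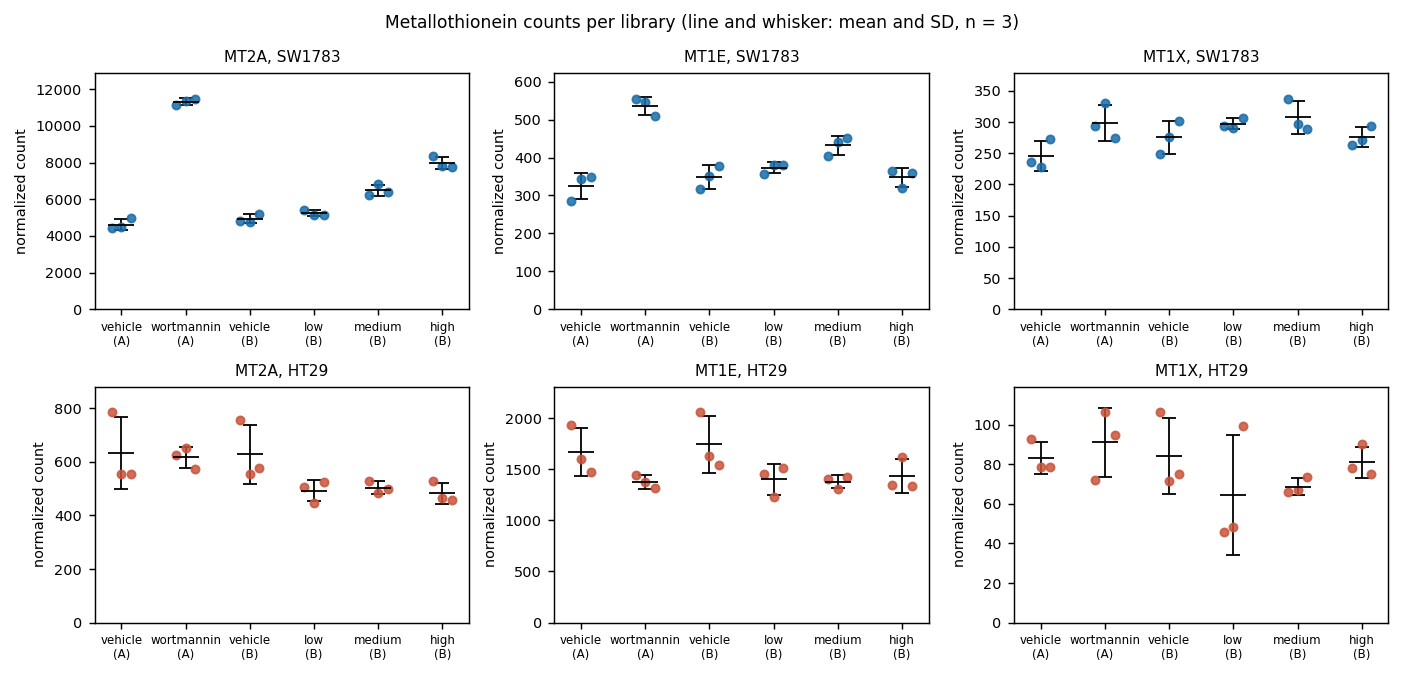
Normalized counts of MT2A, MT1E and MT1X (y axes from 0) in every library of the 12 groups, upper row SW1783 and lower row HT29. Points are libraries, lines and whiskers the mean and SD of 3. MT2A in SW1783 stepped up at the medium and high doses of ACD and was highest with wortmannin, at 11122 to 11496, and replicate 1 was the highest vehicle library in HT29.

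Wortmannin gave the highest MT2A level of the SW1783 groups. The counts were 4426, 4472 and 4958 with the vehicle of batch A and 11122, 11375 and 11496 with wortmannin. MT2A rose 2.44-fold (log2 fold change 1.29 ± 0.05, adjusted p = 5.41e-119) and ranked 9 by size among the 133 called rises with a mean of 100 or more. MT1E rose too, 1.63-fold (0.71 ± 0.10, adjusted p = 1.19e-11), from 286.2, 343.1 and 347.5 to 555.5, 545.1 and 509.8. These were the 2 genes called of the 5 with an adjusted p-value, against 2.71% of all genes. MT1X was at 235.8, 227.3 and 273.1 with vehicle and at 293.3, 330.7 and 273.9 with wortmannin, a log2 fold change of 0.28 (95% interval 0.04 to 0.52, adjusted p = 0.0687). MT1F, with 7 to 13 counts under vehicle and 22 to 29 under wortmannin, had a log2 fold change of 1.01 ± 0.49, for which DESeq2 gave no adjusted p-value because of the low counts (unadjusted p = 0.0394 from the DESeq2 fit), while edgeR's quasi-likelihood test gave 1.02 (adjusted p = 0.0128). In the transcribed pseudogene MT1L, counts also rose in SW1783 with wortmannin, from 27.8 ± 3.87 to 52.8 ± 6.73, past both thresholds. MT1L shares sequence with the other genes of the cluster.

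MT1E and MT1X did not follow MT2A with ACD. MT1A, MT1F, MT1G and MT1M had too few counts in SW1783 to tell whether they did. From vehicle to the high dose their means went from 3.35 to 6.45, 12.1 to 7.04, 1.66 to 2.57 and 0.319 to 2.14 normalized counts. MT1E in SW1783 was at 316.6, 351.7 and 377.7 with vehicle, 356.1, 380.3 and 381.4 at the low dose, 403.3, 441.1 and 451.8 at the medium dose, and 363.6, 318.8 and 360 at the high dose. Among all genes tested, 50.2% did not overlap between medium dose and vehicle and 56.6% between high and medium. For MT1E the medium-dose libraries lay above all the others of batch B, while the high dose overlapped vehicle. Against vehicle the medium dose gave a log2 fold change of 0.32 ± 0.10 (adjusted p = 0.00849), under the fold threshold, and the high dose 0.02 (95% interval -0.18 to 0.22). High was lower than medium by a log2 difference of -0.30 ± 0.10 (adjusted p = 0.00935). MT1X gave 0.11, 0.16 and 0.03 at the low, medium and high doses, with adjusted p of 0.74, 0.321 and 0.875. As a share of the metallothionein counts, MT2A went from 87.9% ± 0.735 with vehicle to 92.1% ± 0.476 at the high dose and from 88.2% ± 0.365 to 92.5% ± 0.377 with wortmannin.

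Because reads of near-identical genes can be moved between rows, the 21 rows of the metallothionein family were also summed and tested as 1 row. In SW1783 the sum rose 1.57-fold at the high dose (0.65 ± 0.04, adjusted p = 1.82e-57) and 2.32-fold with wortmannin (1.22 ± 0.06, adjusted p = 4.35e-101). The medium dose gave 0.38 ± 0.04 (adjusted p = 1.2e-19) and the low dose 0.09 ± 0.04 (adjusted p = 0.271). In HT29 the sum gave -0.32, -0.35 and -0.35 at the high, medium and low doses and -0.20 with wortmannin, with adjusted p from 0.113 to 0.28. The spread was wider in HT29, where the SE of the sum was 0.13 at each dose, against 0.04 in SW1783. Without replicate 2 of the high dose the sum in HT29 gave -0.40 (adjusted p = 0.00434), and without replicate 1 of the vehicle -0.18 (adjusted p = 0.459). Without replicate 1 of the vehicle of the batch, the medium and low doses gave -0.21 and -0.20 and wortmannin -0.06 (adjusted p = 0.557).

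In HT29 none of the 8 genes with an adjusted p-value was called at any dose, against 2.91% of all genes at the high, 0.849% at the medium and 0.321% at the low dose. None of the 7 tested was called between high and medium (0.699%) or between medium and low (0.162%), and none of the 5 tested with wortmannin (2.74%). MT2A was at 755.6, 553.5 and 578 with vehicle of batch B, 506.2, 448.1 and 524.6 at the low dose, 530.2, 484.3 and 498.3 at the medium dose, and 527.3, 466.3 and 456.2 at the high dose. All 9 treated libraries lay below the 3 vehicle libraries. A lack of overlap with vehicle was seen in 22%, 29.1% and 21.8% of all genes tested at the low, medium and high doses. The log2 fold changes of MT2A were -0.37, -0.33 and -0.39 from low to high dose, and the high dose alone passed the adjusted p-value (0.0388), under the fold threshold. Replicate 1 of the vehicle was the highest library, and without it the low, medium and high doses gave -0.22, -0.18 and -0.24, none past the adjusted p-value. Without replicate 2 of the high dose that dose gave -0.38 (adjusted p = 0.0262).

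MT1E, the main metallothionein of HT29, was at 2061, 1630 and 1538 with vehicle of batch B, 1456, 1231 and 1515 at the low dose, 1401, 1309 and 1427 at the medium dose, and 1343, 1623 and 1336 at the high dose. Replicate 1 of the vehicle again stood highest, and replicate 2 of the high dose overlapped the vehicle. The log2 fold changes of -0.34, -0.35 and -0.30 from low to high dose had adjusted p of 0.399, 0.19 and 0.184. At the high dose it was -0.40 without replicate 2 of that dose (adjusted p = 0.00438) and -0.16 without replicate 1 of the vehicle (adjusted p = 0.588), and without the latter the low and medium doses gave -0.20 and -0.22. With wortmannin MT1E was at 1443, 1371 and 1312 against 1935, 1597 and 1477 with its vehicle, a log2 fold change of -0.31 ± 0.10 (adjusted p = 0.0202), under the fold threshold. MT2A overlapped between these groups, at 625.7, 653 and 573.5 with wortmannin and 787.4, 556.2 and 554.7 with vehicle (-0.06, 95% interval -0.33 to 0.22). Replicate 1 was thus also the highest HT29 vehicle library of batch A for both genes, and without it MT1E gave -0.18 (adjusted p = 0.0485) and MT2A 0.13. Since same-numbered vehicles of the batches were alike, the replicate 1 libraries of A and B may not be independent observations. MT1F had higher counts with wortmannin than with vehicle in HT29 as in SW1783, at 24.1, 23.5 and 30.4 against 17.1, 15.8 and 12.1 normalized counts, with no adjusted p-value from DESeq2.

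**Figure D3:**
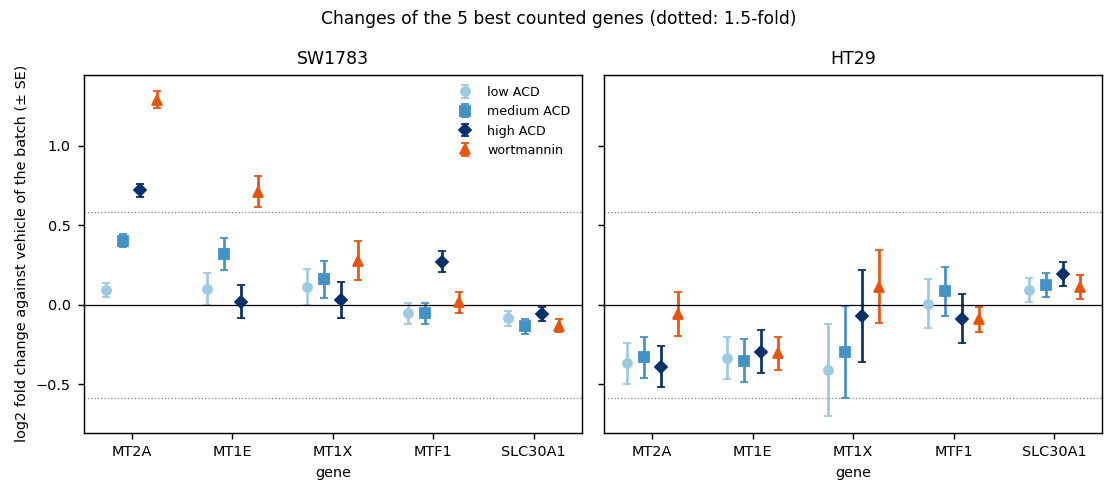
Log2 fold change (± SE) against the vehicle of the batch for the 5 well counted genes, SW1783 left and HT29 right, with low, medium and high ACD and wortmannin as separate markers. The dotted lines mark 1.5-fold. Only MT2A at the high dose and MT2A and MT1E with wortmannin lay beyond them, all in SW1783.

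Whether the lines differed in their response was tested as an interaction. For MT2A the change was larger in SW1783 by a log2 difference of 1.06 ± 0.13 at the high dose (adjusted p = 8.1e-16), 0.71 ± 0.12 at the medium dose (adjusted p = 8.31e-07) and 1.32 ± 0.14 with wortmannin (adjusted p = 1.01e-17). The low dose gave 0.43 ± 0.12 (adjusted p = 0.0517). For MT1E it was larger in SW1783 by 0.65 ± 0.16 at the medium dose (adjusted p = 0.00178) and 0.99 ± 0.15 with wortmannin (adjusted p = 1e-09), and the high dose gave 0.27 (95% interval -0.05 to 0.60), or 0.37 without replicate 2 of HT29 (adjusted p = 0.0519). The genes called for a difference between lines were thus 1 of the 7 with an adjusted p-value at the high dose (15.1% of all genes), and of 5 such genes 2 at the medium dose (3.33%), 0 at the low dose (0.266%) and 2 with wortmannin (3.36%). Both calls at the medium dose rested on replicate 1 of the HT29 vehicle, without which MT2A gave 0.56 and MT1E 0.51, under the fold threshold. MT1E gave 0.58 without replicate 1 of the SW1783 vehicle. MT2A kept its call without the HT29 vehicle replicate 1 at the high dose (0.92) and with wortmannin (1.13).

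The RNA counts of the sensor and the exporter moved little. MTF1 in SW1783 was at 940.9, 842.3 and 873 with vehicle, 891.9, 829.7 and 828 at the low dose, 812.9, 868.9 and 860.3 at the medium dose, and 1082, 1033 and 1032 at the high dose. The high-dose libraries lay above all others, by a log2 fold change of 0.27 ± 0.07 against vehicle (adjusted p = 0.000125) and 0.32 ± 0.07 against the medium dose (adjusted p = 4.69e-06), both under the fold threshold. Groups did not overlap for 60.4% of all genes tested between high dose and vehicle and for 56.6% between high and medium. With wortmannin MTF1 gave 0.01 (95% interval -0.11 to 0.14). These are counts of MTF1 RNA, and the activity of the sensor was not measured. In HT29 MTF1 was at 1061, 643.3 and 1025 at the high dose, replicate 2 being the library that stood apart, and at 908.7, 983.4 and 985.3 with vehicle. The log2 fold change of -0.09 became 0.09 without that replicate, and neither passed the test.

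SLC30A1, the zinc exporter, was at 2227, 2120 and 2198 with vehicle of batch B in SW1783 and at 2009, 2002 and 1911 at the medium dose. It was lower there by a log2 fold change of -0.14 ± 0.05 (adjusted p = 0.0146) and with wortmannin by -0.13 ± 0.04 (adjusted p = 0.00673), both far from 1.5-fold, while the high dose gave -0.06 (95% interval -0.15 to 0.03). In HT29 the vehicle libraries were at 947.9, 965.9 and 1075 and the high-dose libraries at 1160, 1118 and 1166. These groups did not overlap, as for 21.8% of all genes tested there. SLC30A1 gave 0.19 ± 0.08 (adjusted p = 0.111), or 0.20 and 0.0625 without replicate 2. The interaction was -0.29 ± 0.08 at the high dose (adjusted p = 0.000838), -0.28 ± 0.08 at the medium dose (adjusted p = 0.00417) and -0.26 ± 0.06 with wortmannin (adjusted p = 0.000842). These differences passed the adjusted p-value and not the fold threshold.

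**Figure D4:**
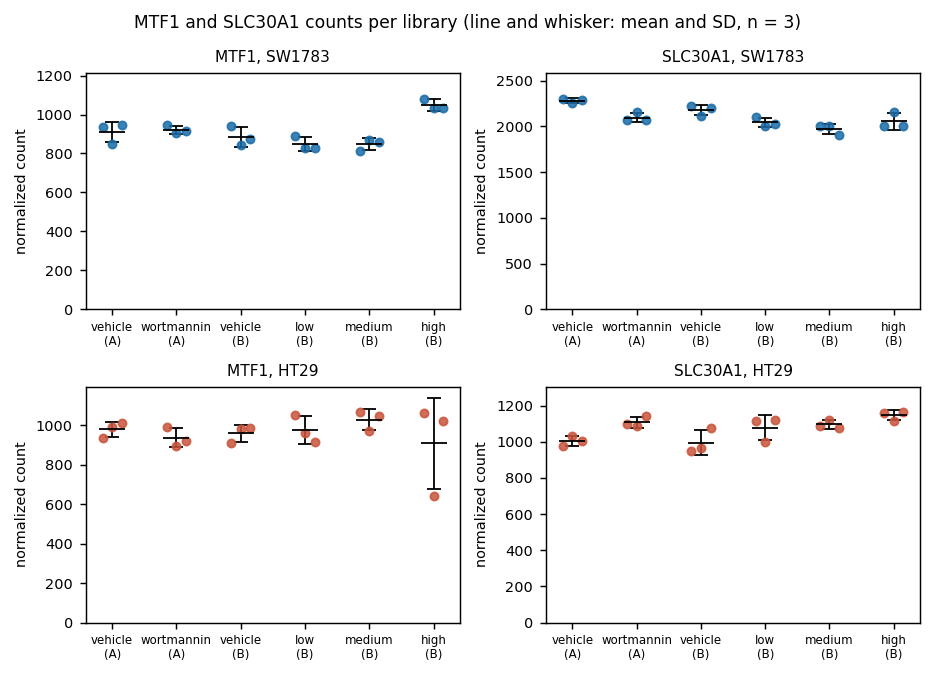
Normalized counts of MTF1 and SLC30A1 (y axes from 0) in every library of the 12 groups, upper row SW1783 and lower row HT29. Points are libraries, lines and whiskers the mean and SD of 3. MTF1 in SW1783 was highest at the high dose, at 1032 to 1082, and 1 HT29 library of the high dose lay low at 643.3.

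Of the 14 SLC39 zinc importers, 12 had an adjusted p-value at the high dose in SW1783, where 1 rose and 1 fell, a share near the 18.2% of all genes called there. SLC39A14, an importer of zinc and iron, rose from 4624 ± 44.4 to 8478 ± 156.4 (0.90 ± 0.04, adjusted p = 3.07e-130). SLC39A8, a close relative, fell from 401 ± 43.8 to 257.7 ± 16.5 (-0.61 ± 0.11, adjusted p = 1.73e-07), but by less than 1.5-fold without replicate 1 of the vehicle (-0.52) or of the high dose (-0.56). In HT29 none of 12 was called at the high dose (2.91% of all genes), and SLC39A14 gave 0.07 there. The interaction at the high dose was 0.78 ± 0.08 for SLC39A14 (adjusted p = 2.24e-23) and -0.73 ± 0.13 for SLC39A8 (adjusted p = 4.26e-07). SLC39A1 was called there too (-0.64 ± 0.07, adjusted p = 1.51e-18). Of the 12 importers tested, 1 was thus called up and 2 down, against 15.1% of all genes. With wortmannin none of 11 was called in SW1783 (2.71% of all genes) and 1 of 12 in HT29 (2.74%), SLC39A5, an importer named after its values were seen, at 67.6 ± 13 with vehicle and 134.5 ± 15.2 with wortmannin. Of the 9 other SLC30 genes, 1 of 7 tested was called at the high dose in SW1783, again near the 18.2% of all genes, and none with wortmannin in either line or in HT29 at any dose. That gene was SLC30A2, a vesicle zinc transporter, also named after its values were seen, with 1, 0 and 1 counts with vehicle and 17, 24 and 26 at the high dose.

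Of 8 copper handling genes, 1 was called at the high dose in SW1783, against 18.2% of all genes. SLC31A2, a copper transporter, rose from 185.7 ± 41.7 to 328.8 ± 24.7 (0.85 ± 0.15, adjusted p = 4.97e-08). In HT29 none of 8 was called at the high dose (2.91% of all genes), and with wortmannin 1 was (2.74%). COX17, a copper chaperone of the mitochondrion, fell from 843.5 ± 129.3 to 547 ± 12.8 (-0.65 ± 0.12, adjusted p = 1.17e-06), or by 0.52 on the log2 scale without replicate 1 of the vehicle. The 4 partners of MTF1 at promoters (SP1, USF1, USF2 and EP300) were called in no treatment. At the high dose their median was 0.05 on the log2 scale in SW1783 (all genes tested, -0.01) and 0.06 in HT29 (all genes, 0.007).

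Among 10 other genes that respond to heavy metals and oxidants, 6 rose and 2 fell at the high dose in SW1783, where 18.2% of all genes were called, and 6 rose in HT29, where 2.91% were. HMOX1, the heme-degrading enzyme, rose in SW1783 from 1289 ± 25.3 to 13289 ± 654.3 (3.39 ± 0.05). In HT29 it rose from 203.2 ± 16.1 to 437.9 ± 56.3 (1.09 ± 0.13, adjusted p = 1.56e-15). GCLC, a subunit of the enzyme that limits glutathione synthesis, rose by 1.98 ± 0.06 in SW1783 (adjusted p = 1.74e-245). HSPA1A, a heat shock chaperone, fell from 2642 ± 53.3 to 1057 ± 38.3 in SW1783 (-1.30 ± 0.05, adjusted p = 5.25e-124), and its near-identical copy HSPA1B gave -0.87 ± 0.06. The list had a median of 0.63 on the log2 scale in SW1783 and 0.74 in HT29. With wortmannin, where MT2A was highest, the list gave no rise and 1 fall in SW1783 (2.71% of all genes called), in which HMOX1 fell from 1237 ± 32.7 to 625.1 ± 6.79 (-0.99 ± 0.06, adjusted p = 1.42e-52). In SW1783 the high dose and wortmannin thus moved HMOX1 in opposite directions and MT2A in the same. Whether MTF1 activity, oxidants or another cause lay behind the MT2A changes was not tested.

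Of 7 glucocorticoid responsive genes, 6 had an adjusted p-value. In SW1783 1 was called at the high dose, a share near the 18.2% of all genes, and 1 with wortmannin, against 2.71%. The first was DUSP1, a phosphatase of MAP kinases, from 732.9 ± 36.1 to 2521 ± 54.1 (1.81 ± 0.06, adjusted p = 1.72e-173), and the second KLF9, a transcription factor, from 1415 ± 47.5 to 2219 ± 73.7 (0.64 ± 0.05, adjusted p = 3.82e-37). None was called in HT29 (2.91% of all genes at the high dose and 2.74% with wortmannin). At the high dose the list had a median of 0.35 in SW1783 and 0.16 in HT29.

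**Figure D5:**
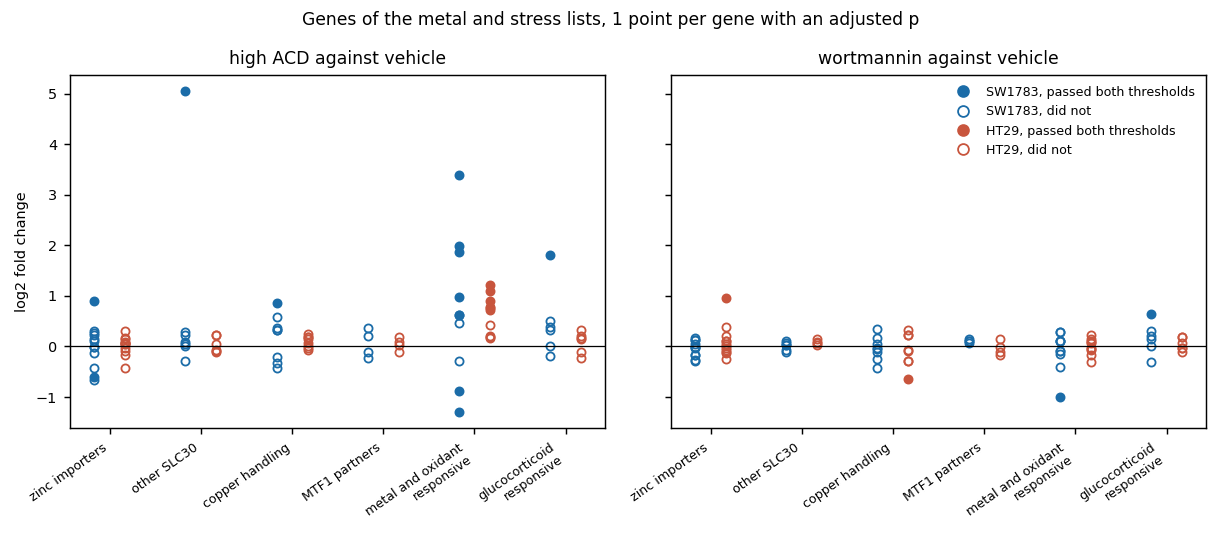
Log2 fold changes of the genes in 6 lists at high ACD (left) and with wortmannin (right), 1 point per gene with an adjusted p-value, blue for SW1783 and red for HT29. Filled points passed both thresholds. The highest point is SLC30A2 in SW1783, which had 0 or 1 counts in each SW1783 vehicle library of batch B, so that its fold is not interpretable.

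Genes outside the family whose levels ran most like MT2A were listed as a description. Over the 18 libraries of SW1783, with 11438 genes compared, these were CTSB (Pearson r = 0.977), TIMP1 (0.974), LOX (0.972), LRP10 (0.971) and RNASE4 (0.969). CTSB, a lysosomal protease, was at 7786 ± 142.2 with vehicle of batch B, 9198 ± 128.4 at the high dose and 10763 ± 198.9 with wortmannin. The other members were less like it, with r of 0.769 for MT1E, 0.394 for MT1X, 0.42 for MTF1 and -0.387 for SLC30A1. In HT29 the first were MPHOSPH8 (0.907), MARCKSL1 (0.899), ENSG00000259891 (0.873), SH3BGRL3 (0.847) and GABPB2 (0.847). MPHOSPH8 was at 2416 ± 476.9 with vehicle of batch B and 1831 ± 96.3 at the high dose. Its SD was largest in the vehicle groups, with 532.6 in batch A. How far single HT29 vehicle libraries carried these correlations was not tested. The libraries of a line share batches, depth and vehicles, so the coefficients carry no p-value.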

How the data were processed

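The authors prepared directional mRNA libraries with an MGI kit, sequenced them as paired-end reads, trimmed them with Trim Galore, aligned them with STAR and quantified Ensembl genes with RSEM. Versions in the submitters' processing notes were FastQC 0.11.9, Trim Galore 0.6.5, STAR 2.7.3a and RSEM 1.3.3, on GRCh38, and the strand setting was not given in the sources used here. The methods name other versions of the trimmer and aligner and add the name of an older build, so positions are those of GENCODE v44 and entered no test. The deposited values are RSEM expected counts, not normalized, of which 8.84% were not whole; they were rounded here.

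Tests were the Wald tests of DESeq2 1.42.0 in R 4.3.3, two-sided, as in the study's methods, on the whole table with p-values adjusted by Benjamini-Hochberg over all genes of a contrast. Fits took the 12 batch B or 6 batch A libraries of a line, and 24 or 12 libraries for differences between lines. Treatments were set against vehicle of the same batch. Genes without an adjusted p-value were not called. Printed normalized counts use size factors over all 36 libraries, per kilobase values the MANE Select transcript length. Alternatives were edgeR 4.0.16, other size factors, a low-count filter, no fold threshold, a replicate block, other sets of libraries and leaving out each library. The code was tested on simulated data.

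Named genes were all 9 members, then up to 2 rises and 2 falls per list and contrast, the largest among called genes with a mean of 100 or more, and the 5 genes per line with the highest Pearson r to MT2A of log2(normalized count + 1). The lists were written from general knowledge, and the members and lists were chosen with earlier results of these data known.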

Additional observations from a re-analysis of the deposited data

Results flagged for a closer look

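Results are given here because the response differed between the cell lines in a test of that difference. For MT2A the log2 fold change was larger in SW1783 than in HT29 by 1.06 at the high dose of ACD, by 0.71 at the medium dose and by 1.32 with wortmannin. For MT1E it was larger in SW1783 by 0.65 at the medium dose and by 0.99 with wortmannin. In HT29 the replicate 1 vehicle libraries of both batches had the highest counts of MT2A and MT1E, and the part of these libraries in the differences was measured by leaving them out, which gave 0.92, 0.56 and 1.13 for MT2A and 0.51 and 0.87 for MT1E in the same order. Same-numbered vehicles of the batches were alike, so these libraries of A and B may not be independent. Cell line and culture medium cannot be told apart.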

How the results depend on the processing

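The low-count filter, the other size factors, the fits without mitochondrial ribosomal RNA and the fits on other sets of libraries changed no call of the 9 genes. Without the fold threshold the number of the 9 genes called became 2 at the high dose in SW1783, 3 at the medium dose, 3 between high and medium, 1 between medium and low, 1 in HT29 at the high dose and 1 with wortmannin, and 2 for the difference between lines at the high dose, and it went from 2 to 3 in SW1783 with wortmannin and for the differences between lines at the medium dose and with wortmannin. The metallothionein sum at the medium dose in SW1783 (0.38) passed. The share of all genes that passed the adjusted p-value alone is not given here, so these counts are not read as particular to the group. At the high dose in SW1783, 7 of 12 importers tested, 3 of 7 other SLC30 genes, 6 of 8 copper handling genes and 4 of 4 MTF1 partners passed it. With edgeR 2 genes differed between lines at the high dose, the second being MT1A (1.62). With 1 library left out, the count for the difference between lines ranged from 1 to 2 at the high dose, 0 to 2 at the medium dose and 0 to 1 at the low dose, where MT1X passed without replicate 3 of the low dose in HT29. No count within a line moved by more than 1.5 times with 1 library left out. MT1F passed with edgeR in SW1783 with wortmannin (1.02) and between the vehicle groups (-0.79), where it also passed without replicate 2 of the HT29 vehicle (-0.93).

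Direction changed with 1 library left out for 11 values, which lay near 0 except MT1A in HT29 with wortmannin (0.46). They ranged from -0.05 to 0.08 for MT1E and -0.04 to 0.10 for MT1X at the high dose in SW1783, -0.02 to 0.10 for MT1X between medium and low, -0.03 to 0.04 for MTF1 with wortmannin, and in HT29 from -0.18 to 0.12 for MT1X and -0.20 to 0.09 for MTF1 at the high dose, and from -0.02 to 0.67 for MT1A, -0.03 to 0.25 for MT1X and -0.15 to 0.13 for MT2A with wortmannin. For the difference between lines MT1X ranged from -0.13 to 0.17 at the high dose and -0.01 to 0.28 with wortmannin. The cause was not tested. A value of 0.00 was given no direction.

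Replicates share numbers across groups, and the correlation of deviations was over 0.1 in 5 of 18 same-numbered pairs in each line in batch B (r from -0.114 to 0.224 in SW1783 and -0.475 to 0.358 in HT29), in 0 of 3 in SW1783 and in 2 of 3 in HT29 in batch A (-0.0489 to 0.143). Since not every pair passed, the numbers were not taken as pairs, although same-numbered vehicles of the 2 batches were alike. With the replicate block the number of the 9 genes called stayed the same in all 17 comparisons, and MT2A at the high dose in SW1783 gave 0.72 with the block. Of values under the fold threshold, the difference between lines in SLC30A1 with wortmannin had an adjusted p of 0.16 with the block (-0.27), and that in MT2A at the low dose one of 0.0152 (0.43), from DESeq2. Depth limited MT1A, MT1F, MT1G and MT1M, which had few counts and no adjusted p-value in many comparisons.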
